A study of Mus musculus with 6 samples.

Results

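Major histocompatibility complex (MHC) class I molecules and their regulators were followed in the humerus shaft of embryonic mice by 8 genes, chosen by symbol from a table of 23930 amplicons. The genes were the heavy chain genes H2-D1, H2-K1 and, of the Q series, H2-Q7, H2-Q6, H2-Q5 and H2-Q4, the light chain gene B2m and the regulator gene Nlrc5. The genes had been picked with the difference between the groups already known, so their values are a description, no p-value is given for them, and the count of calls among them supports nothing. The 3 Stat3 KO samples carried the Prrx1Cre driver and 2 conditional Stat3 alleles (Prrx1Cre; Stat3C/C), and the 3 control samples carried 1 conditional allele without the driver (Stat3C/+), which the labels also call wild type. All samples were taken at E16.5, an embryonic stage before birth. The driver and the second conditional allele differ together between the groups, so their effects cannot be told apart. Prrx1Cre is known to act in limb bud mesenchyme and its descendants, which include cartilage, bone and tendon cells, and blood-derived and endothelial cells of the shaft lie outside that lineage. Each gene was read at 1 amplicon, with values in RPM, reads scaled to the total of the library.

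A class I molecule is a heavy chain held together with beta-2 microglobulin, the product of B2m, around a short peptide cut from proteins of the cell. H2-K1 and H2-D1 encode the classical heavy chains, which show peptides to CD8 T cells and are ligands of inhibitory receptors on natural killer cells. H2-Q6 and H2-Q7 encode forms of the non-classical Qa-2 antigen. NLRC5 is a nuclear protein without a DNA-binding domain of its own that raises class I transcription through the RFX, CREB or ATF and NF-Y factors bound upstream of these genes, and its own gene is induced by interferon gamma.

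The upstream sequences are shown because the heavy chain genes share short elements known to carry interferon and NF-kappa B signals. A window of 300 bases, 250 before and 50 after the annotated start, was given in RefSeq for 6 of the 8 genes (GRCm38.p6). The stretches that end with the sequence TTTCACTTC were as follows, read along the strand of each gene, with capitals marking matches to the motifs searched.
H2-K1: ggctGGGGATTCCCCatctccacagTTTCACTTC
H2-D1: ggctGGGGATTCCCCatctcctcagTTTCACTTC
H2-Q4: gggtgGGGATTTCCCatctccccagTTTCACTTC
H2-Q6: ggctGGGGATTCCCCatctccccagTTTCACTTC
H2-Q7: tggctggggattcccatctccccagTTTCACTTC
In GRCm38.p6 these stretches of 34 bases lie at chr17:34000429-34000462 on the minus strand for H2-K1, and on the plus strand at chr17:35262919-35262952 for H2-D1, chr17:35379439-35379472 for H2-Q4, chr17:35424673-35424706 for H2-Q6 and chr17:35439017-35439050 for H2-Q7. The whole windows of H2-D1 (chr17:35262844-35263143, plus strand) and of B2m (chr2:122147437-122147736, plus strand) are given to set a heavy chain gene beside the light chain gene.
H2-D1: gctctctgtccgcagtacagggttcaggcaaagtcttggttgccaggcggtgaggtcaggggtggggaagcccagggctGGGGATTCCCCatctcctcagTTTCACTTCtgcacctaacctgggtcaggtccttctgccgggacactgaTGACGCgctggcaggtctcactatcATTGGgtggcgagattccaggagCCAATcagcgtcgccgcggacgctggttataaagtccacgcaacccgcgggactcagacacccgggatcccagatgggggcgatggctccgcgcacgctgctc
B2m: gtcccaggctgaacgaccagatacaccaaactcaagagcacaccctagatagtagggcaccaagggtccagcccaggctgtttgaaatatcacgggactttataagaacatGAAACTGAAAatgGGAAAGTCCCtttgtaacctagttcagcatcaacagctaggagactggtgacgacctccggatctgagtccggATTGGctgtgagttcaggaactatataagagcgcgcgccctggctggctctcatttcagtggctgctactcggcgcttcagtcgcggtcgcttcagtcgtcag

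Motifs were searched on both strands as exact letters. GAANNGAAA, the core of an interferon-stimulated response element (TTTCACTTC read on the other strand), was found in all 5 heavy chain windows and in 7.52% of all 32851 windows in the table. The longer core of the same element, with a pair of GAAA blocks around 2 free bases and letters that can overlap the shorter one, was found in the B2m window and in 3.44% of all windows. The near-palindromic kappa B type motif, in capitals before TTTCACTTC in the H2-K1 stretch, was found in the windows of H2-D1, H2-K1 and H2-Q6 and in 10 windows of all (0.0304%). A looser kappa B type motif, with free bases at 2 positions and in capitals in the H2-Q4 stretch, was found in H2-Q4 and B2m and in 1.20% of all windows. TGACGC, a CREB or ATF type motif, was present for H2-D1, H2-K1 and H2-Q4 (7.40% of all windows), and TGACGT for H2-Q4 and H2-Q7 (7.51%). The TGACGC match of H2-Q4 lay after the annotated start and on the opposite strand, whereas those of H2-D1 and H2-K1 lay before it. CCAAT, the NF-Y motif, was present in all 6 windows and in 37.4% of all. TTCNNNGAA, the form bound by STAT dimers, matched none of the 6 windows and 8.30% of all. RefSeq listed a pair of overlapping windows for H2-K1, with the same motifs in both. These are matches of letters in windows of this length and say nothing about binding.

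The 6 heavy chain genes lie on chromosome 17 (GENCODE M21, GRCm38). H2-K1 (33996017 to 34000347) lies 1262 kb from H2-D1 (35262730 to 35267499). H2-Q4 (35379617 to 35385290) follows after 112 kb, and H2-Q5 (35394126 to 35397800), H2-Q6 (35424850 to 35430055) and H2-Q7 (35439155 to 35443773) come next, with gaps of 8.84, 27.1 and 9.10 kb. The annotation gives H2-Q5 as a polymorphic pseudogene and the others as protein coding. B2m is on chromosome 2 (122147686 to 122153083) and Nlrc5 on chromosome 8 (94434356 to 94527272).

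The heavy chain genes resemble each other, so reads of one may have been counted at another. Of the distinct windows of 100 bases in the GENCODE transcripts of H2-Q5, 14.0% also occurred in a transcript of another gene, against 12.0% for H2-Q7 and 10.8% for H2-Q6. The share was 3.59% for H2-D1, 2.16% for H2-Q4 and 0.957% for H2-K1, and it was 0 for B2m and Nlrc5. H2-Q5 shared 170 windows and H2-Q6 shared 166 windows with H2-Q7, which also shared 270 with H2-Q10. The sequences of the amplicons themselves were not used here, so whether they fall in shared windows is not known.

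Libraries held 9126493 to 11809106 reads in Stat3 KO samples and 11640697 to 13376550 in control samples. The targeted gene Stat3 was read at 208, 201 and 170.1 RPM in Stat3 KO samples and 211, 201 and 211 RPM in control samples, with a log2 fold change of -0.11 ± 0.08 (SE) (limma, adjusted p = 0.380, not passed). Whether the amplicon sits in the floxed segment is unknown here, so this level checks nothing about the labels. The 7 osteoblast markers with an amplicon summed to between 31624 and 36475 RPM in Stat3 KO samples and between 36912 and 40167 RPM in control samples, as a check of the labelled tissue, most of it from Col1a1, which did not pass, and the other 6 were called lower. Of 7 chondrocyte markers 5 were called lower (summed 281 to 316 RPM in Stat3 KO samples and 380 to 384 RPM in control samples), and of 7 skeletal muscle markers 4 were (9058 to 9540 RPM in Stat3 KO samples and 10536 to 10928 RPM in control samples). These calls are from limma. In edgeR 6 osteoblast, 3 chondrocyte and 3 skeletal muscle markers were called lower, and in DESeq2 5, 3 and 3 were. The part of these tissues in the levels below was not tested. Fold changes below are differences of log2(RPM + 1) between group means unless they are called ratios, and an amplicon was called at an adjusted p under 0.05 (limma, Benjamini-Hochberg over the 12846 amplicons that averaged 1 RPM or more).

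Every heavy chain gene was read at a higher level in Stat3 KO bone than in control bone, by 1.80 to 7.57 times as a ratio of means, and so was Nlrc5, while the B2m libraries overlapped between the groups. Of the 8 genes, 7 were called higher and 1, B2m, did not pass, where 5.71% of all 12846 tested amplicons were called higher, 11% lower and 16.7% either way. Higher amplicons made up 34.2% of those calls, and 52.7% to 56.3% of them under the other scalings and count tests tried. The Stat3 KO and control libraries did not overlap for the same 7 genes, with every Stat3 KO library above, as for 11.9% of all tested amplicons. The median log2 fold change was 1.20 over the 8 genes and -0.06 over all tested amplicons. These counts follow from how the genes were picked, and nothing is read from them. In bulk tissue more cells of a type and more RNA per cell cannot be told apart. H2-Q5, H2-Q6 and H2-Q7 had control means under 1 RPM and entered the test only through their level in Stat3 KO samples.

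**Figure D1:**
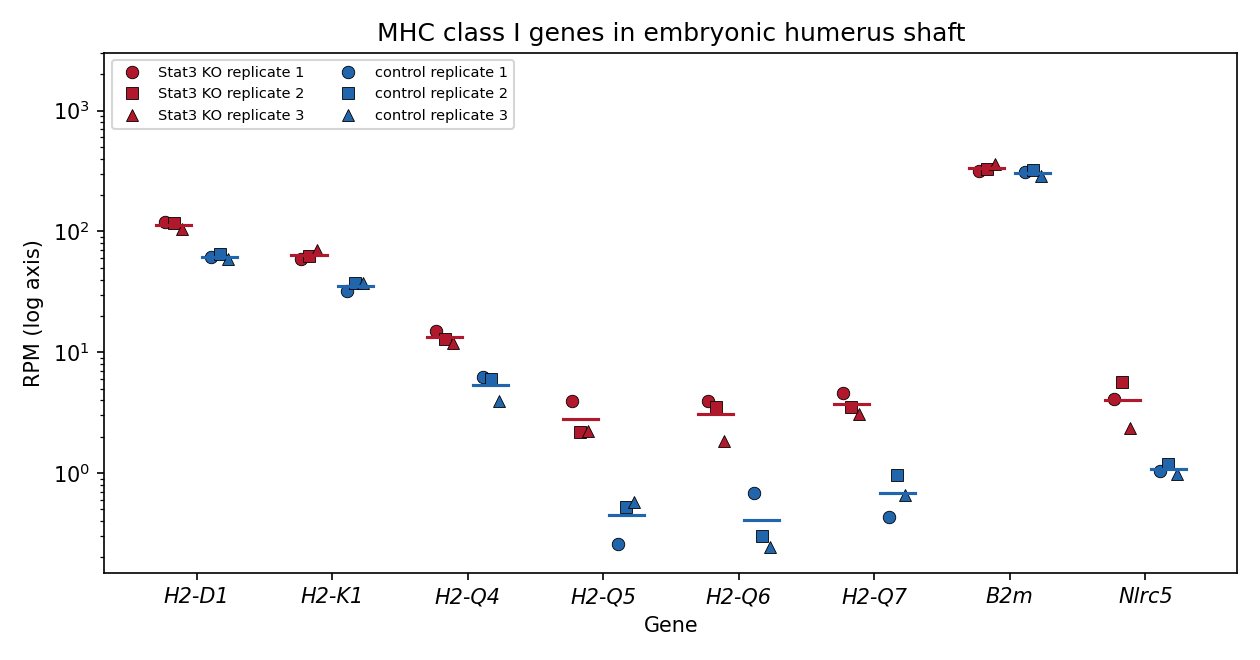
Level of each gene in every library, in RPM on a log axis, with Stat3 KO samples in red at the left and control samples in blue at the right of each gene; symbols give the replicate number and bars the group mean. The groups are apart for the 6 heavy chain genes and Nlrc5 and overlap for B2m.

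H2-D1, a classical heavy chain gene and the heavy chain amplicon with the most reads, had 120.2, 117 and 105 RPM in Stat3 KO samples and 61.8, 64.4 and 59.5 RPM in control samples. The lowest Stat3 KO library was 1.63 times the highest control library. Group means were 114 ± 8.13 RPM in Stat3 KO samples and 61.9 ± 2.45 RPM in control samples (SD, n = 3 each), and the log2 fold change was 0.87 ± 0.09 (SE).

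H2-K1, the other classical gene, had 59.4, 62.1 and 70.5 RPM in Stat3 KO samples and 32.0, 37.2 and 37.5 RPM in control samples. The groups did not overlap, and Stat3 KO replicate 3, the lowest of its group for H2-D1, was the highest for H2-K1. Means were 64.0 ± 5.81 RPM in Stat3 KO samples and 35.5 ± 3.11 RPM in control samples (SD, n = 3 each), with a log2 fold change of 0.83 ± 0.10 (SE). The ratio of H2-D1 to H2-K1 RPM within a library was 1.80 ± 0.279 in Stat3 KO samples and 1.75 ± 0.172 in control samples (SD, n = 3 each), with overlapping groups, so the balance between the classical genes differed by less than the spread between replicates.

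H2-Q4, a non-classical heavy chain gene, had 15.0, 12.9 and 12.0 RPM in Stat3 KO samples and 6.19, 5.98 and 3.94 RPM in control samples. The groups were apart, with control replicate 3 below the other controls. The means of 13.3 ± 1.55 RPM in Stat3 KO samples and 5.37 ± 1.24 RPM in control samples (SD, n = 3 each) gave a ratio of 2.48 and a log2 fold change of 1.18 ± 0.17 (SE).

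The Qa-2 genes H2-Q6 and H2-Q7 and the neighbouring H2-Q5 were low in both groups. H2-Q7 had 4.57, 3.51 and 3.07 RPM in Stat3 KO samples and 0.430, 0.972 and 0.657 RPM in control samples. H2-Q6 had 3.98, 3.51 and 1.84 RPM in Stat3 KO samples and 0.687, 0.299 and 0.246 RPM in control samples. H2-Q5 had 3.98, 2.19 and 2.25 RPM in Stat3 KO samples and 0.258, 0.523 and 0.575 RPM in control samples. In each of these genes Stat3 KO replicate 1 was the highest library and no control library reached the lowest Stat3 KO library. The exact 95% Poisson intervals of H2-Q6 in Stat3 KO replicate 1 (2.92 to 5.29 RPM) and replicate 3 (1.09 to 2.91 RPM) do not meet.

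These values rest on few reads. H2-Q7 had 54, 32 and 30 reads in Stat3 KO samples and 5, 13 and 8 in control samples, H2-Q6 had 47, 32 and 18 in Stat3 KO samples and 8, 4 and 3 in control samples, and H2-Q5 had 47, 20 and 22 in Stat3 KO samples and 3, 7 and 7 in control samples. Pooled over libraries, the Stat3 KO to control ratio of reads per depth was 5.40 for H2-Q7 (95% exact interval 3.51 to 8.61), 7.83 for H2-Q6 (4.52 to 14.5) and 6.34 for H2-Q5 (3.74 to 11.4). The same ratio was 1.84 (1.75 to 1.94) for H2-D1 and 2.49 (2.10 to 2.97) for H2-Q4. These intervals treat every read as independent and cover counting error only, not the spread between libraries. No molecular identifiers were counted. The genes were picked for their difference, so the intervals are a description and not a test. The log2 fold changes were 1.48 ± 0.22 for H2-Q7, 1.51 ± 0.25 for H2-Q6 and 1.37 ± 0.24 for H2-Q5 (SE), a scale on which the added 1 RPM understates the change of genes this low.

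**Figure D2:**
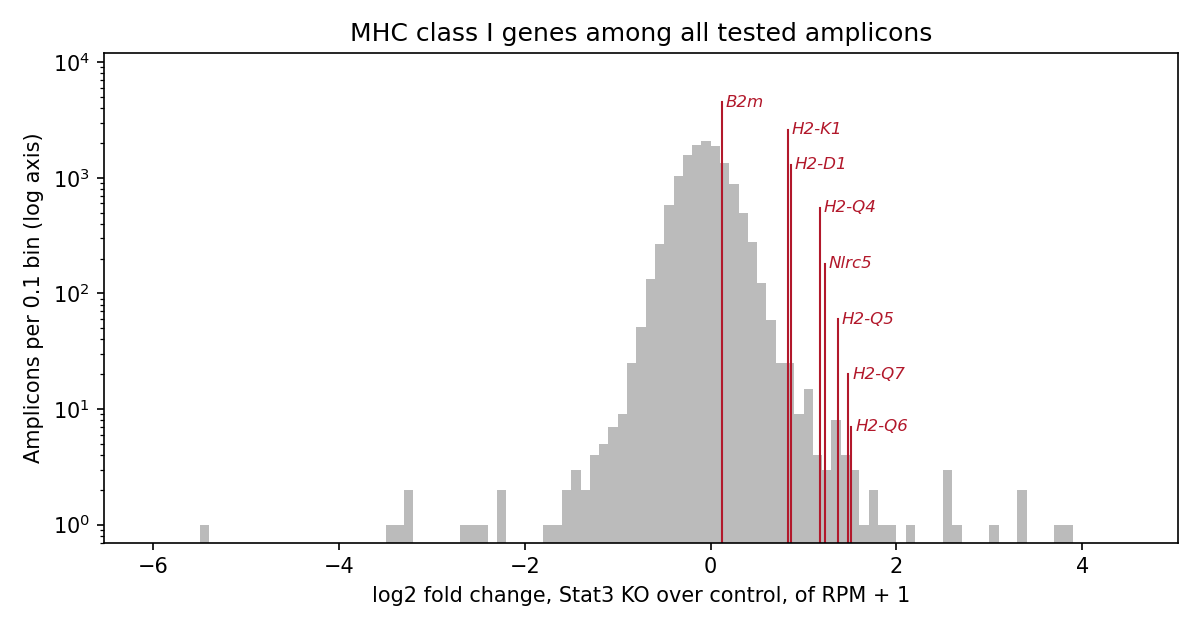
Distribution of log2 fold changes (Stat3 KO over control, of RPM + 1) of all 12846 tested amplicons in bins of 0.1, with the count on a log axis; red lines mark the 8 genes. B2m lies at 0.12, above 77.4% of tested amplicons, and the other genes lie between 0.83 and 1.51.

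Since reads may be shared among heavy chain genes, their RPM were also summed in each library, a value that does not depend on how reads were split among the 6. The sum was 207, 201 and 194 RPM in Stat3 KO samples and 101.3, 109 and 102 RPM in control samples. All Stat3 KO libraries lay above all control libraries and the spread within a group was small, with means of 201 ± 6.37 RPM in Stat3 KO samples and 104 ± 4.42 RPM in control samples (SD, n = 3 each), a ratio of 1.92. The 4 H2-Q genes made up 11.4% ± 1.76 of the sum in Stat3 KO samples and 6.62% ± 1.16 in control samples (SD, n = 3 each), and these groups did not overlap either. H2-Q5, H2-Q6 and H2-Q7 together had 12.5, 9.20 and 7.16 RPM in Stat3 KO samples and 1.38, 1.79 and 1.48 RPM in control samples. Amplicons differ in how well they are amplified, so these sums and shares compare libraries and not the numbers of molecules of different genes.

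B2m, which encodes the light chain of every class I molecule, had 314, 327 and 363 RPM in Stat3 KO samples and 313, 322 and 287 RPM in control samples. The groups overlapped, and only Stat3 KO replicates 2 and 3 lay above every control. Means were 335 ± 25.5 RPM in Stat3 KO samples and 307 ± 17.9 RPM in control samples (SD, n = 3 each), and the log2 fold change of 0.12 ± 0.08 (SE) was higher than that of 77.4% of tested amplicons. The heavy chain sum divided by B2m was 0.659, 0.616 and 0.535 in Stat3 KO samples and 0.324, 0.340 and 0.357 in control samples. This ratio within a library does not depend on the scaling, and its groups did not overlap, with means of 0.603 ± 0.0629 in Stat3 KO samples and 0.340 ± 0.0164 in control samples (SD, n = 3 each).

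**Figure D3:**
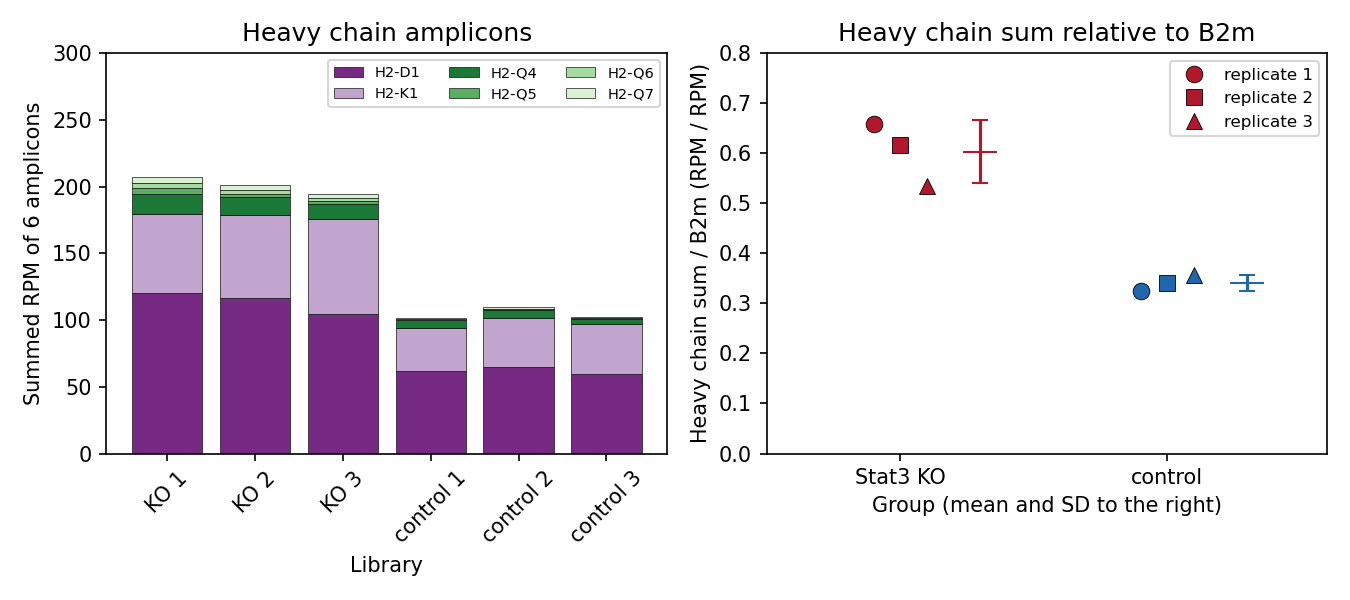
Left, RPM of the 6 heavy chain amplicons stacked for each library, Stat3 KO libraries first. Right, the same sum divided by the RPM of B2m in each library, with the group mean and SD beside the points; Stat3 KO libraries lie between 0.535 and 0.659 and control libraries between 0.324 and 0.357.

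Nlrc5, the class I transactivator gene, had 4.07, 5.70 and 2.35 RPM in Stat3 KO samples and 1.03, 1.20 and 0.986 RPM in control samples. Every Stat3 KO library lay above the controls, and Nlrc5 was the most uneven of the 8 genes among Stat3 KO libraries, with a highest to lowest ratio of 2.42 in Stat3 KO samples and 1.21 in control samples. Stat3 KO replicate 2 had 52 reads (exact 95% Poisson interval 4.26 to 7.47 RPM) and Stat3 KO replicate 3 had 23 (1.49 to 3.53 RPM), and these intervals do not meet. Means were 4.04 ± 1.67 RPM in Stat3 KO samples and 1.07 ± 0.111 RPM in control samples (SD, n = 3 each), a ratio of 3.77 and a log2 fold change of 1.23 ± 0.23 (SE). The Stat3 KO library with the most Nlrc5, replicate 2, was the highest for no heavy chain gene.

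No other class I or class I-like gene was called. Of 37 listed, 28 had an amplicon, 20 of these averaged under 1 RPM and 8 had no read in any library. None of the 8 tested genes was called by limma, edgeR or DESeq2, none had an unadjusted p under 0.05 in limma, and their median log2 fold change was -0.01. H2-T22, a non-classical gene further along chromosome 17 and outside the rule for naming genes, had 32.1, 32.9 and 24.9 RPM in Stat3 KO samples and 25.0, 31.1 and 26.9 RPM in control samples, with overlapping groups and a log2 fold change of 0.11 ± 0.12 (SE, limma, adjusted p = 0.592). Fcgrt, the heavy chain of the neonatal Fc receptor, which also binds B2m, and also outside that rule, averaged 217 ± 12.4 RPM in Stat3 KO samples and 217 ± 7.54 RPM in control samples (SD, n = 3 each).

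Several genes that supply and load class I peptides were higher. Of 12 tested, 6 rose, 1 fell and 5 did not pass (limma, adjusted p under 0.05), with a median log2 fold change of 0.47. Of all tested amplicons, 5.71% were called higher and 11% lower. This list and the lists below were also chosen with earlier results of these data known. Their counts and p-values are therefore a description. The immunoproteasome subunit gene Psmb8 rose to 17.2 ± 3.06 RPM in Stat3 KO samples, against 5.82 ± 0.433 RPM in control samples (SD, n = 3 each, log2 fold change 1.40 ± 0.15 SE, limma adjusted p = 9.62e-07). The peptide transporter gene Tap1 rose to 16.7 ± 2.22 RPM in Stat3 KO samples, against 6.25 ± 1.39 RPM in control samples (log2 fold change 1.30 ± 0.16 SE, limma adjusted p = 7.63e-06). Its partner Tap2 (log2 fold change 0.66, adjusted p = 0.0131) and the immunoproteasome gene Psmb9 (0.80, adjusted p = 0.0145) rose as well in limma. Psmb9 had 24, 17 and 21 reads in Stat3 KO samples and 9, 10 and 8 in control samples. Its control mean was under 1 RPM, so it entered the test only through its level in Stat3 KO samples. DESeq2 gave Psmb9 no adjusted p. The gene that fell was Calr, outside the naming rule, which encodes the chaperone calreticulin, with a log2 fold change of -0.44 ± 0.07 (SE, limma adjusted p = 1.00e-04). Without control replicate 2, only 3 genes of this list remained called higher, and Tap2 had an adjusted p of 0.101 there, of 0.0845 without Stat3 KO replicate 1 and of 0.0828 with no filter (limma).

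**Figure D4:**
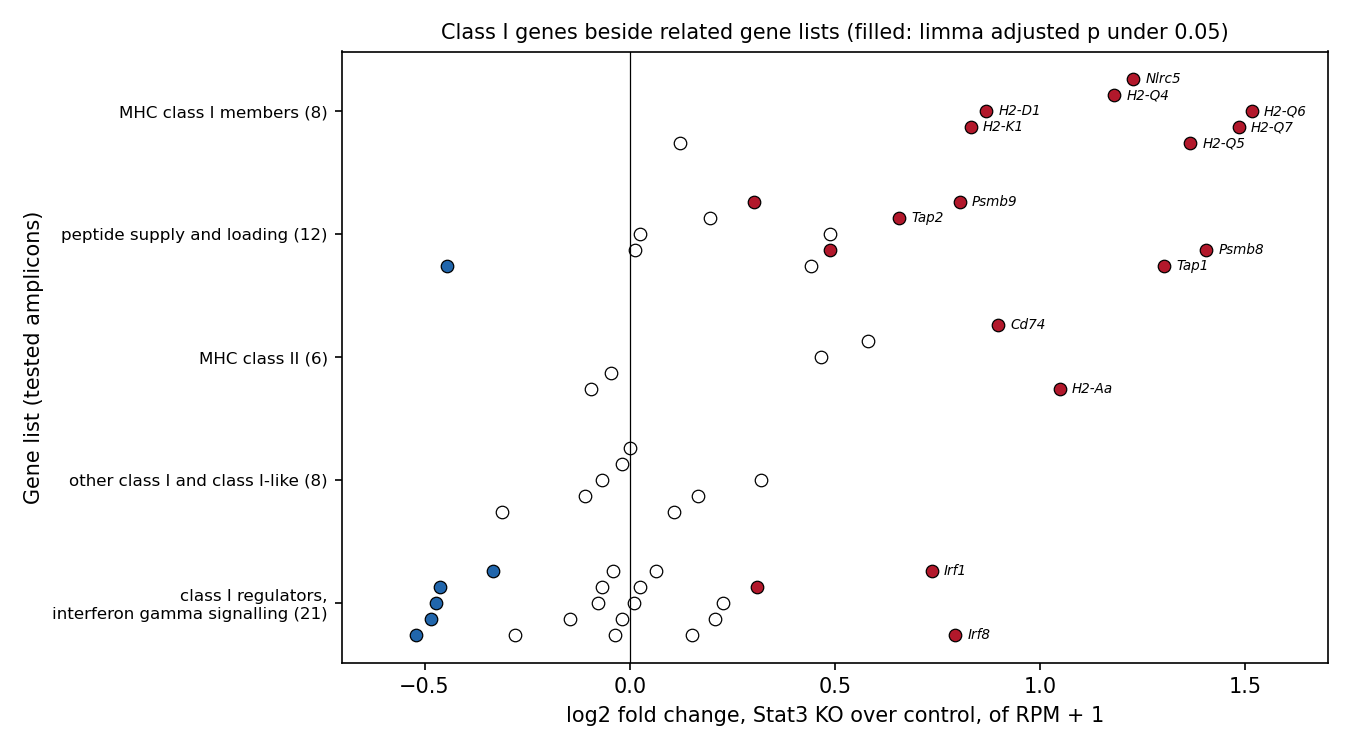
Log2 fold change (Stat3 KO over control, of RPM + 1) of each tested gene in 5 lists, with the number tested in parentheses; filled points passed limma at an adjusted p under 0.05, red higher and blue lower, and the vertical spread within a list only separates points. The heavy chain genes, Psmb8, Tap1 and H2-Aa lie to the right, and the 8 other class I genes lie between -0.31 and 0.32.

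Regulators of class I genes and of interferon gamma signalling went both ways, with 3 of 21 called higher, 5 called lower and a median log2 fold change of -0.04. Irf8 rose to 17.5 ± 2.14 RPM in Stat3 KO samples, against 9.65 ± 0.394 RPM in control samples, and Irf1 rose to 47.1 ± 4.57 RPM in Stat3 KO samples, against 27.8 ± 0.458 RPM in control samples (SD, n = 3 each, limma adjusted p = 3.44e-04 and 5.18e-05). Both encode interferon-induced transcription factors that bind elements of the interferon-stimulated response type. The other gene called higher was Atf1 at 0.31, outside the naming rule. Among the lower genes were the interferon receptor gene Ifnar2, with a log2 fold change of -0.48 ± 0.12, and Irf9, with -0.52 ± 0.16 (SE, limma adjusted p = 0.00639 and 0.0308).

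Genes of the factors through which NLRC5 acts went both ways, Atf1 being one of them, and those that follow lie outside the naming rule. Rfxank, an RFX subunit gene, fell by 0.46 on the log2 scale (limma adjusted p = 0.0183) and Nfya, an NF-Y subunit gene, fell by 0.33 (adjusted p = 0.0190), as did the kinase gene Jak2 by 0.47 (adjusted p = 0.00460). The RFX genes Rfx5 and Rfxap had log2 fold changes of -0.04 and 0.15 and did not pass (limma adjusted p = 0.884 and 0.420). Creb1 and the NF-Y gene Nfyb were tested and did not pass either, and Nfyc had no amplicon. In limma without control replicate 1, adjusted p was 0.0527 for Rfxank, 0.0530 for Nfya, 0.0557 for Atf1 and 0.105 for Irf9, and without control replicate 2 it was 0.118 for Rfxank, 0.0801 for Nfya, 0.0557 for Atf1 and 0.101 for Irf9. Without Stat3 KO replicate 2 it was 0.0715 for Rfxank and 0.148 for Irf9, and without Stat3 KO replicate 3 it was 0.0654 for Nfya and 0.105 for Irf9. Irf9 also missed the threshold with no filter (adjusted p = 0.123), with quantile normalization (0.0640), in edgeR (0.0716) and in DESeq2 (0.108). Nfya missed it with median-of-ratios factors (adjusted p = 0.0530), with quantile normalization (0.0505) and in DESeq2 (0.0525), and Rfxank with no filter (0.0580) and with quantile normalization (0.0529).

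MHC class II genes, which present peptides on specialised immune cells, were higher in part. Of 11 with an amplicon 6 were tested, and 2 rose: the class II chain gene H2-Aa, at 4.29 ± 0.270 RPM in Stat3 KO samples and 1.57 ± 0.323 RPM in control samples, and the invariant chain gene Cd74, at 15.8 ± 2.14 RPM in Stat3 KO samples and 8.03 ± 0.933 RPM in control samples (SD, n = 3 each, limma adjusted p = 8.38e-04 and 2.18e-04). The 11 amplicons summed to between 28.9 and 34.7 RPM in Stat3 KO samples and between 17.9 and 20.4 RPM in control samples. Their regulator gene Ciita stayed below the filter with 13 reads in all Stat3 KO libraries together and 16 in all control libraries together. Of the interferon and related cytokine genes 3 of 15 were tested and none was called by limma, edgeR or DESeq2, with 0 at an unadjusted p under 0.05 in limma. Ifng, which encodes interferon gamma, had 1 read in Stat3 KO replicate 3 and none in the other libraries, and a count of 0 allows up to 3 reads, or 0.254 and 0.329 RPM in the Stat3 KO libraries without a read and 0.224 to 0.258 RPM in control libraries.

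Receptors that recognise class I were scarcely read. Of 16 such genes with an amplicon 15 averaged under 1 RPM, Cd8b1 had no read, and Cd8a had 3 reads in all Stat3 KO libraries and 0 in control libraries. The tested gene, the inhibitory receptor gene Pirb (outside the naming rule), averaged 6.27 ± 1.63 RPM in Stat3 KO samples and 4.18 ± 0.353 RPM in control samples (SD, n = 3 each) and was not called by limma (adjusted p = 0.0821, unadjusted p under 0.05) or DESeq2, but was called by edgeR.

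Markers of blood-derived and vascular cells were set beside the heavy chain genes, since class I is expressed by most cells of the body. The 10 macrophage markers summed to between 285 and 310.3 RPM in Stat3 KO samples and between 270.1 and 299 RPM in control samples, with 2 of 9 tested higher and 1 lower. Counts were the same in limma, edgeR and DESeq2, and 6 had an unadjusted p under 0.05 in limma. Their median log2 fold change was -0.27, and they went both ways. Cd68 had 3829 reads in Stat3 KO and 3343 in control libraries, whereas Mrc1 had 2195 and 3235 and Csf1r had 909 and 1479. The 9 endothelial markers summed to between 704 and 739 RPM in Stat3 KO samples and between 715 and 753 RPM in control samples, with 0 of 8 higher and 2 lower in limma, 3 at an unadjusted p under 0.05, 1 higher and 2 lower in edgeR, and 1 higher and 1 lower in DESeq2. The sums of both lists overlapped between the groups.

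Natural killer cell markers were low throughout, and their higher sum came mainly from Klrb1c and Gzma. Their 8 amplicons summed to between 5.59 and 7.20 RPM in Stat3 KO samples and between 1.42 and 3.20 RPM in control samples. The only one tested, Klrb1c, which encodes a receptor of these cells, was called higher (limma, adjusted p = 0.00155), with 4.83, 3.29 and 5.21 RPM in Stat3 KO samples and 1.89, 0.822 and 1.89 RPM in control samples. Defining markers were at or near 0: Ncr1 had 3 reads in all Stat3 KO libraries and 0 in control libraries, Klrd1 had 1 in Stat3 KO and 0 in control libraries, and Prf1 had 0 in Stat3 KO and 2 in control libraries. Gzma had 38 reads in Stat3 KO and 10 in control libraries. Nkg7 had 10 in Stat3 KO and 14 in control libraries, and Gzmb had 8 in Stat3 KO and 9 in control libraries. Total reads given for markers are not scaled to depth, and the control libraries together held more reads.

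Of the dendritic cell markers 1 of 2 tested was higher (Itgax, log2 fold change 0.73, limma adjusted p = 0.0243). Itgax had 23, 26 and 20 reads in Stat3 KO samples and 11, 13 and 12 in control samples. Its control mean was under 1 RPM, so it entered the test only through its level in Stat3 KO samples. The 7 dendritic cell amplicons summed to between 11.5 and 15.2 RPM in Stat3 KO samples and between 11.2 and 13.01 RPM in control samples, with Xcr1 at 0 in every library. T cell markers summed to between 2.45 and 4.49 RPM in Stat3 KO samples and between 2.32 and 5.07 RPM in control samples, with 0 of 1 tested called by limma, edgeR or DESeq2 and none at an unadjusted p under 0.05. B cell markers summed to between 47.8 and 54.6 RPM in Stat3 KO samples and between 59.9 and 76.5 RPM in control samples, mostly from Ebf1, which mesenchymal cells also express. The neutrophil markers summed to between 37.4 and 40.8 RPM in Stat3 KO samples and between 88.4 and 90.1 RPM in control samples, with 5 of 5 tested lower. Osteoclast markers summed to between 1065 and 1087 RPM in Stat3 KO samples and between 746 and 812 RPM in control samples, with 2 of 7 higher and 1 lower. Most of this sum came from Mmp9, with 20586 reads in Stat3 KO and 15290 in control libraries. Calcr had 47 reads in Stat3 KO and 167 in control libraries, and Ocstamp had 498 and 723. Erythroid markers summed to between 78.7 and 87.1 RPM in Stat3 KO samples and between 66.8 and 79.6 RPM in control samples, with 1 of 3 higher. The part of these cell types in the heavy chain levels was not tested.

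Genes around the heavy chain genes on chromosome 17 were examined because the 6 lie in one region. Genes of the other lists were counted there and left out here. Among those left out, Psmb8, Psmb9, Tap1, Tap2, Tapbp and H2-Aa, also on chromosome 17, were called higher. The smallest rise was that of Tapbp, outside the naming rule, at 0.30 (limma adjusted p = 0.0403). Tapbp missed the threshold in 6 of 16 alternative settings, and Tap2 in 3 of 16. Of the remaining annotated genes within 500 kb of a heavy chain gene 61 were tested, with a median log2 fold change of -0.08. None was called higher by limma, edgeR or DESeq2, 7 were called lower by limma, and 12 had an unadjusted p under 0.05 in limma. The share called lower was close to that of all tested amplicons, 11%. The value that stood apart was that of Ddr1, a collagen receptor gene (35681567 to 35704621), at 0.254, 0.438 and 0.409 RPM in Stat3 KO samples and 11.5, 12.0 and 11.3 RPM in control samples, with a log2 fold change of -3.21 ± 0.18 (SE, limma adjusted p = 1.69e-11). Rgl2 (-0.57), Ppp1r10 (-0.53) and Angptl4 (-0.45) followed in size (limma adjusted p = 0.0122, 0.0151 and 0.0131). Without control replicate 1 the adjusted p in limma was 0.0624 for Rgl2 and 0.107 for Ppp1r10, without control replicate 2 it was 0.0743 and 0.116, without Stat3 KO replicate 3 it was 0.0566 for Ppp1r10, and without Stat3 KO replicate 1 it was 0.0656 for Angptl4. Ppp1r10 also missed the threshold in DESeq2 (adjusted p = 0.172) and in limma with no filter (0.0918), Rgl2 with no filter (0.0610) and Angptl4 with quantile normalization (0.0537). Each gene is read at 1 amplicon, and sequence differences between the animals at an amplicon were not tested.

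**Figure D5:**
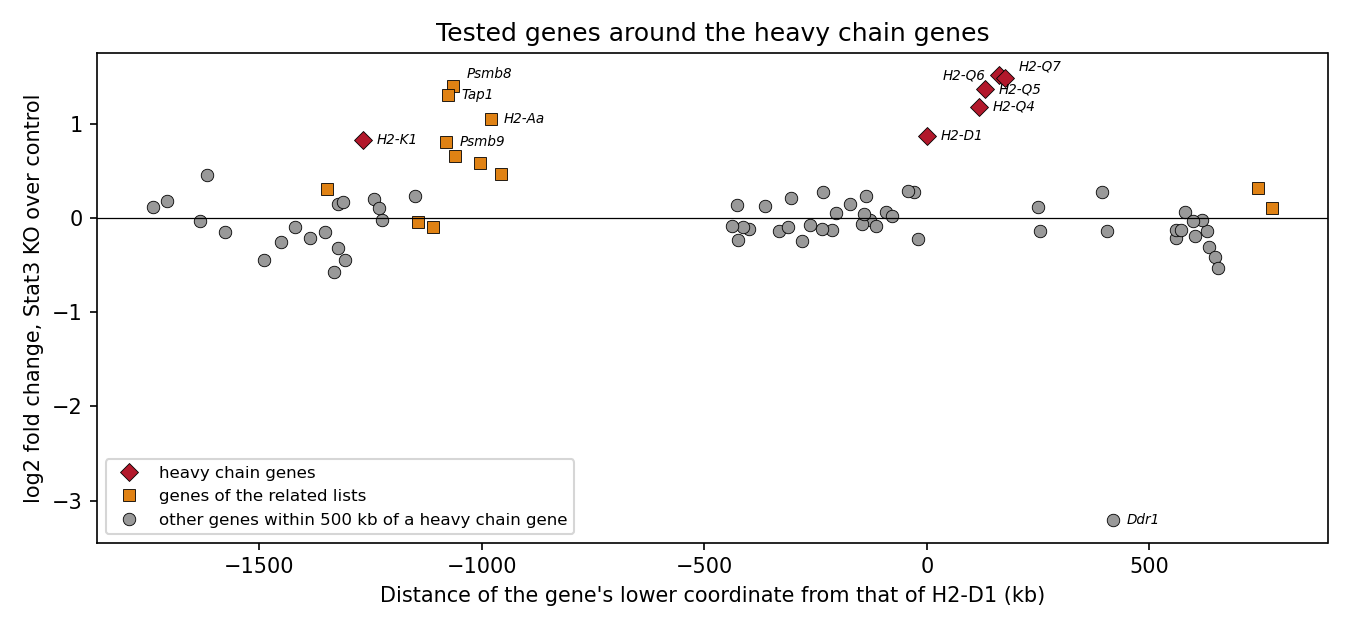
Log2 fold change (Stat3 KO over control, of RPM + 1) of tested genes on chromosome 17 against the distance of each gene's lower coordinate from that of H2-D1 in kb; red diamonds are heavy chain genes, orange squares genes of the related lists and grey circles the other genes within 500 kb of a heavy chain gene. The heavy chain genes, Psmb8, Psmb9, Tap1 and H2-Aa stand above their neighbours, and Ddr1 stands below at -3.21.

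Likeness to the heavy chain pattern was measured as the Euclidean distance over the 6 samples between profiles of log2(RPM + 1), each less its control mean. The 5 genes nearest to the mean profile of the 6 heavy chain genes were Clec4d, a myeloid lectin receptor gene, at a distance of 0.290, Tap1 (0.342), Lacc1 (0.351), the interleukin gene Il1b (0.356) and H2-Aa (0.371). Clec4d had 8.81, 7.01 and 6.24 RPM in Stat3 KO samples and 2.23, 2.77 and 1.89 RPM in control samples. Il1b had 2.117, 2.52 and 1.635 RPM in Stat3 KO samples and 0.258, 0.224 and 0.329 RPM in control samples. With a control mean under 1 RPM, Il1b was among the tested genes only through its level in Stat3 KO samples. The 5 nearest to Nlrc5 were Gbp9, an interferon-inducible GTPase gene (0.414), Il1b (0.462), Psmb8 (0.550), Aim1 (0.566) and Cd28 (0.576). Gbp9 had 15.8, 20.2 and 11.9 RPM in Stat3 KO samples and 7.56, 7.33 and 6.49 RPM in control samples, with the same order of the Stat3 KO libraries as Nlrc5. These genes were chosen for their values, so no test is given.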

How the data were processed

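RNA of 6 humerus shaft samples was read with the Ion AmpliSeq mouse transcriptome panel, per the labels' protocols, and the authors deposited RPM values (reads scaled to the library total) for 23930 amplicons. No source used here names an aligner, counter or genome build (not given in the sources used here). All values above 0 were whole multiples of 1 step per library within 0.1 read, so whole reads were recovered (100%), and count tests on them called 1974 genes in edgeR and 1773 in DESeq2. Amplicons averaging 1 RPM or more were compared as log2(RPM + 1) with limma 3.58.1 (R 4.3.3, empirical Bayes with trend), tested on simulated data beforehand. The members' protein sequences were not used here. The labels do not say whether replicates were separate embryos, so p-values measure the spread between samples. Library pairs within a group differed beyond counting noise (chi-square per degree of freedom 4.54 to 7.80). The members and lists were chosen with earlier results of these data known. Named were all 8 members and, from each list of other genes, up to 4 called genes of the largest absolute fold change, with the 5 nearest profiles; genes below the filter and uncalled list genes were named outside this rule, after their values were seen. Alternatives changed the pseudocount, filter, scaling, test and libraries (edgeR 4.0.16, DESeq2 1.42.0). Figures were drawn with matplotlib 3.10.9.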

Additional observations from a re-analysis of the deposited data

Results flagged for a closer look

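Among listed genes below the filter on low values, outside the comparisons above, 3 markers of lymphoid and dendritic cells had at least 3 reads in every Stat3 KO library and more RPM in each of them than in any control library. Gzma, a granzyme gene of killer lymphocytes, had 14, 16 and 8 reads in Stat3 KO samples (38 in total) and 3, 3 and 4 in control samples. Clec9a, a dendritic cell receptor gene, had 15, 9 and 11 reads in Stat3 KO samples (35 in total) and 7, 3 and 5 in control samples. Cd3g, a T cell receptor subunit gene, had 5, 9 and 5 reads in Stat3 KO samples (19 in total) and 3, 3 and 2 in control samples. No test was made of these counts, and the genes were singled out by this pattern. Other low markers of these cell types ran the other way: the dendritic cell gene Ccr7 had 0, 0 and 0 reads in Stat3 KO samples and 2, 6 and 3 in control samples, and the B cell gene Pax5 had 3, 0 and 0 in Stat3 KO samples and 3, 3 and 4 in control samples. T cell genes went both ways in their total reads. Cd4 had 19 in Stat3 KO and 33 in control libraries, and Cd5, which was tested and not called, had 47 and 71. Cd3e had 10 in Stat3 KO and 3 in control libraries, and Cd2 had 8 and 3.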

How the results depend on the processing

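The alternatives say nothing about the stability of the calls among the 8 genes, which were picked for their difference. With a filter at 5 RPM H2-Q5, H2-Q6, H2-Q7 and Nlrc5 were not tested. The median log2 fold change of the 8 genes was 1.53 with 0.1 RPM added, 0.35 with 10 RPM added, 0.85 with the filter at 5 RPM (4 genes), 1.66 in edgeR and 1.67 in DESeq2. The log2 ratio of the heavy chain sum, 0.94, was 1.0 with TMM factors or in edgeR, 1.01 with median-of-ratios factors or in DESeq2, and 1.0 with quantile normalization. Over all amplicons 733 were higher and 1409 lower. The lower count was 869 with no filter, 928 with TMM, 881 with median-of-ratios, 877 with quantile normalization, 922 in edgeR and 775 in DESeq2, and the higher share was 34.2% as deposited and 52.7% to 56.3% under those scalings and tests. Leaving out 1 library gave 444 to 705 higher and 729 to 1314 lower genes, and for lists 3 to 6 higher peptide genes, 2 to 3 higher and 2 to 5 lower regulators, 0 to 1 higher receptor and, near the heavy chain genes, 0 to 1 higher and 3 to 7 lower. With no filter 3 peptide genes were higher and 3 regulators lower. Higher regulators numbered 5 with median-of-ratios factors, and lower ones 2 with quantile normalization and 3 in DESeq2. Only 1 class II gene was higher with the filter at 5 RPM, and 1 receptor with quantile normalization and in edgeR. The cause of these differences was not tested, beyond fewer libraries where 1 was left out. Same-numbered samples correlated at 0.01, -0.02 and 0.11 in their deviations, so the numbers were not taken as pairs, and the replicate block gave 836 higher and 1626 lower genes and 7 higher peptide genes. H2-Q5 and H2-Q6 had 17 and 15 reads over all control libraries, so counting error alone is wide there.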
